A study of Mus musculus with 8 samples.

Results

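Translocation sequencing in Neuro-2a cells, a mouse neuroblastoma line, was compared between cells given ataxin-7 together with a Cas9 break and cells given the break alone. The break was made at site 2, inside Supt16 on chromosome 14. The comparison used 3 of the 8 libraries of the series. The 10Q library came from cells transfected with plasmids for ataxin-7 carrying 10 glutamines, spCas9 and the site 2 sgRNA. The 92Q library came from cells given ataxin-7 with 92 glutamines, spCas9 and the same sgRNA. The sgRNA-only library came from cells given spCas9 and the site 2 sgRNA with no ataxin-7 plasmid. Cas9 and the sgRNA were carried on PX458 in each, expression was transient, and the cells also kept their own ataxin-7 gene. Cells were collected 48 h after transfection, sorted for GFP, and 3 transfections were pooled into each library, so each condition has 1 library and no replicate spread. Another library, with spCas9 and a non-targeting sgRNA, is given as background. The contrast between 92Q and 10Q is not part of this comparison. Genomic DNA was sequenced, so RNA markers of the cell line could not be checked.

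In this assay a biotinylated primer beside the cut (the bait) is extended, and each read reports the DNA to which the bait end was joined (the prey). Most ends made by Cas9 are rejoined locally by end joining, often with loss of bases, and a smaller number are joined to a distant break, which gives a translocation. Ataxin-7 is a subunit of the deubiquitinase module of SAGA, a chromatin-modifying coactivator, and expansion of its glutamine tract causes spinocerebellar ataxia type 7. Supt16 encodes the large subunit of FACT, a histone chaperone that moves nucleosomes aside for polymerases.

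The 2 designed oligonucleotides that define the site are shown because every junction below starts from them. They are written 5′ to 3′, and capitals mark the last 3 bases of the guide, which lie beyond the usual Cas9 cut.
site 2 sgRNA: ctcgcagccctccaccgTAA
site 2 bait primer: ggtttcccctccgctcttta

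A junction was defined by the chromosome, the 5′ end and the strand of the prey, and repeated reads were collapsed. The 3 libraries held 892 distinct junctions (104 in 10Q, 213 in 92Q and 575 in sgRNA only) of 11310 in the whole series, from 1950 of 26488 reads. Distances were measured from the bait end, chromosome 14 position 52181662 of mm10, which lies within the body of Supt16 (52160419 to 52197239). Whether that base is exonic or intronic was not analysed here.

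The ataxin-7 libraries were shallow, and the shortfall lay mostly close to the cut. There were 118 reads from 10Q cells, 305 from 92Q cells and 1527 with the sgRNA alone, against 986 with the non-targeting sgRNA. The authors deposited an on-cut and an off-cut list for each library; in these 3 libraries on-cut prey lay within 33393 bp of the bait end and off-cut prey on chromosome 14 began 38999 bp away. On-cut reads numbered 46 in 10Q, 197 in 92Q and 1341 in sgRNA only. Off-cut reads numbered 72, 108 and 186 in the same order. The sgRNA-only library therefore held 29.2 times the on-cut reads of 10Q but 2.58 times its off-cut reads. Against 92Q the corresponding ratios were 6.81 and 1.72. Pooled, the 2 ataxin-7 libraries held 180 off-cut and 243 on-cut reads, beside 186 and 1341 in the single sgRNA-only library.

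Because repeated reads accumulated near the bait, library sizes were equalised before junctions were compared. The number of distinct junctions expected from the sgRNA-only library at each ataxin-7 read total was computed in closed form, and Fisher's exact test (two-sided) was run on those numbers rounded to whole junctions, with Benjamini-Hochberg adjustment over 15 tests (5 shares in 3 contrasts). A share differed where the adjusted p was below 0.05. The tests compare libraries, not conditions, and intervals cover counting error only. Reads carry no molecular identifiers, the 10Q and 92Q contrasts use the same sgRNA-only library, and the pooled contrast contains both.

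At equal reads the ataxin-7 libraries gave more distinct junctions than sgRNA only. The 118 reads of 10Q gave 104 junctions against 81.3 ± 4.62 (SD of thinning), a ratio of 1.28 with a 95% Poisson interval of 1.05 to 1.55. The 305 reads of 92Q gave 213 against 173.9 ± 7.10, a ratio of 1.22 (1.07 to 1.40). Pooled, the ratio was 1.34 (1.19 to 1.50), above that of either library, but the pooled ratio sets 2 libraries against 1. At mapping quality of 30 or more the excess was no longer clear of counting error, with ratios of 1.25 in 10Q (0.908 to 1.67), 1.10 in 92Q (0.904 to 1.33) and 1.16 pooled (0.973 to 1.37). At mapping quality above 0 the intervals of 10Q (0.979 to 1.60) and 92Q (0.997 to 1.37) also included 1. Reads repeated the same junction mainly near the bait. Within 10 kb of the bait end each junction carried 1.24 reads in 10Q, 1.85 in 92Q and 3.40 in sgRNA only, whereas junctions on other chromosomes carried 1.09, 1.02 and 1.06.

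Junctions to other chromosomes made up a larger share of both ataxin-7 libraries. The difference without thinning was already known when the tests were chosen, so the p-values below do not test a prediction. In 10Q, 58 of 104 junctions were interchromosomal (55.8%, exact 95% interval 45.7 to 65.5), against 15.2% (7.90 to 24.4) of sgRNA only at 118 reads. The difference was 40.6 percentage points (27.6 to 52.0, Fisher's exact test, adjusted exact p = 2.53e-08). In 92Q, 96 of 213 were interchromosomal (45.1%, 38.3 to 52.0), against 18.0% (12.4 to 24.3) of sgRNA only at 305 reads. That difference was 27.0 points (18.1 to 35.6, adjusted exact p = 2.74e-08). Pooled, the share was 51.0% against 19.4%, a difference of 31.6 points (23.8 to 39.1, adjusted exact p = 3.00e-13). With the non-targeting sgRNA 48 of 59 junctions were interchromosomal (81.4%, 69.1 to 90.3), above both ataxin-7 libraries; that library was not thinned. Counted as reads, the order was another one, with 53.4% interchromosomal in 10Q, 32.1% in 92Q, 10.6% in sgRNA only and 5.38% with the non-targeting sgRNA.

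**Figure D1:**
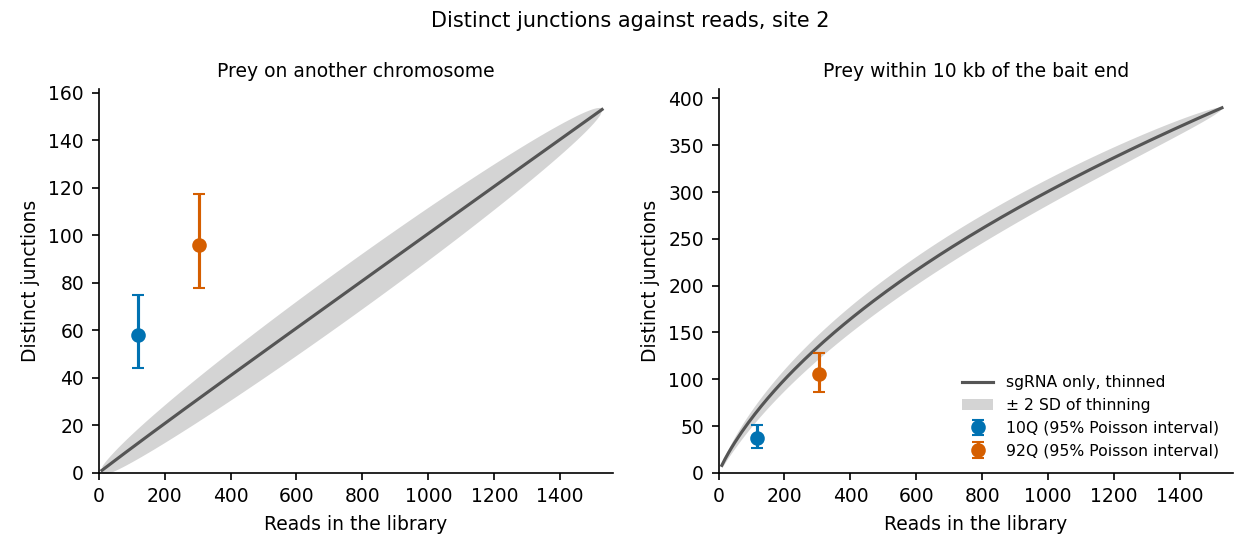
Distinct junctions (y axis) against reads in the library (x axis) for prey on other chromosomes (left) and within 10 kb of the bait end (right); the line is the sgRNA-only library thinned to fewer reads, the band is ± 2 SD of thinning, and points are the 10Q and 92Q libraries with 95% Poisson intervals. At 118 and 305 reads the ataxin-7 libraries held 58 and 96 interchromosomal junctions, above the line, and 37 and 106 junctions near the bait, below it.

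The libraries differed more in reads near the bait than in the number of interchromosomal junctions. The sgRNA-only library had 153 interchromosomal junctions in all from 1527 reads, 2.64 times the 58 of 10Q and 1.59 times the 96 of 92Q. The 2 ataxin-7 libraries together also had 153, from 423 reads, but that sets 2 libraries against 1. Per 100 reads there were 49.2 interchromosomal junctions in 10Q (37.3 to 63.5), 31.5 in 92Q (25.5 to 38.4), 10.0 in sgRNA only (8.49 to 11.7) and 4.87 with the non-targeting sgRNA. Within the off-cut lists, which hold few prey near the bait by their construction, the share showed no difference. It was 86.6% in 10Q against 88.3% (difference -1.70 points, -13.3 to 9.90, adjusted exact p = 0.866), and 90.6% in 92Q against 88.3% (2.26 points, -7.03 to 10.1, adjusted exact p = 0.866). The files give no count of cells or of uncut alleles behind the reads, so fewer recovered local joins and more frequent translocation cannot be told apart. The non-targeting library held 48 interchromosomal junctions, and how many in the other libraries arose without the site 2 cut was not tested.

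The on-cut share fell in both ataxin-7 libraries, as part of the same total. It was 35.6% in 10Q against 82.8% in sgRNA only at equal reads, a difference of -47.3 points (-58.0 to -33.5, adjusted exact p = 3.58e-10). In 92Q it was 50.2% against 79.6%, a difference of -29.3 points (-37.6 to -19.7, adjusted exact p = 9.14e-09). Within 10 kb, 10Q had 37 junctions against 66.2 ± 4.65 expected, and 92Q had 106 against 135.7 ± 6.60. The ratios to expectation were 0.559 (0.393 to 0.770) and 0.781 (0.640 to 0.945).

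**Figure D2:**
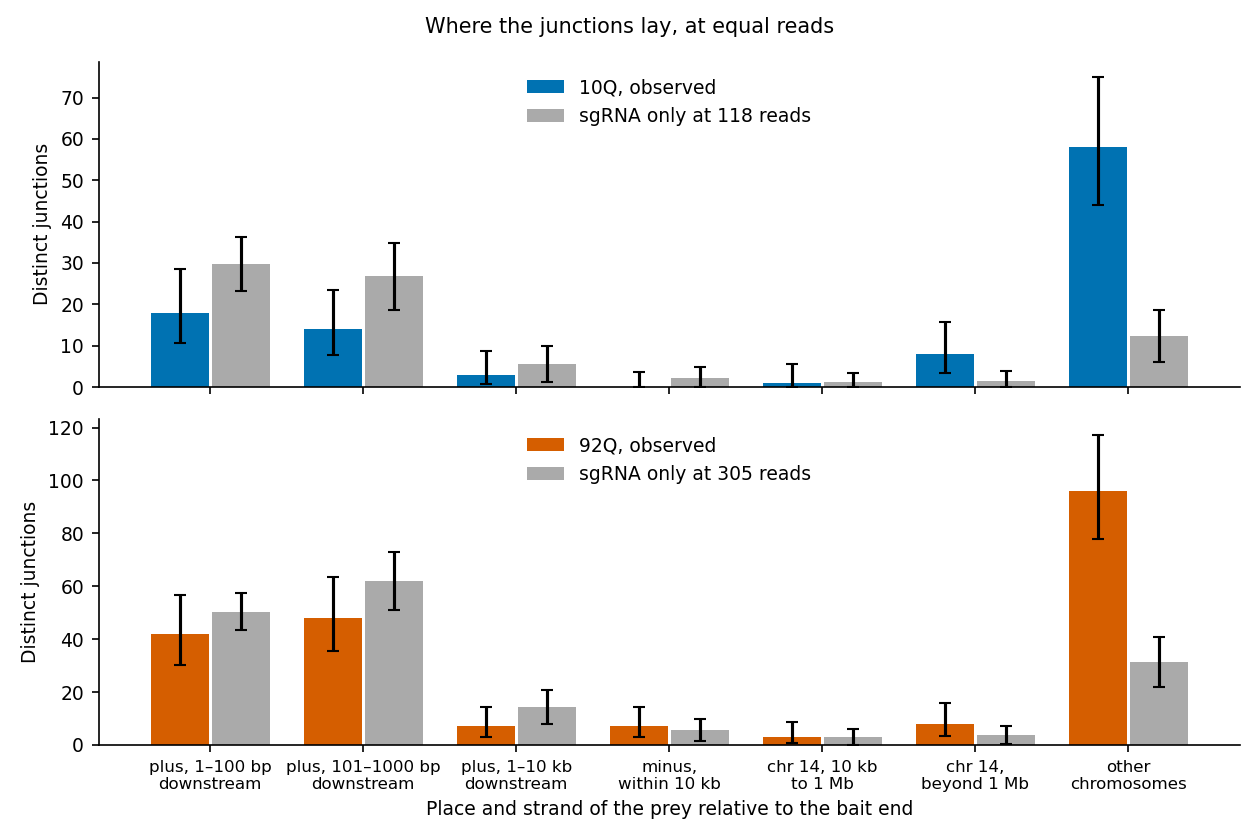
Distinct junctions (y axis) by place and strand of the prey (x axis) in 10Q (top) and 92Q (bottom), with 95% Poisson intervals, beside the number expected from sgRNA only at the same reads (grey, bars ± 2 SD of thinning). Other chromosomes are the one class far above expectation in both libraries, at 58 against 12.3 and 96 against 31.4, while the classes just downstream of the bait end are lower in 10Q.

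On chromosome 14 itself, junctions far from the bait were more frequent in 10Q. Beyond 1 Mb there were 8 junctions in 10Q against 1.46 expected (ratio 5.47, 2.36 to 10.8) and 8 in 92Q against 3.76 (2.13, 0.920 to 4.20). The share of chromosome 14 junctions within 1 Mb was 82.6% in 10Q against 97.9% (-15.3 points, -28.0 to -3.59, adjusted exact p = 0.0260). In 92Q it was 93.2% against 97.4% (-4.20 points, -10.4 to 1.30, adjusted exact p = 0.242). Pooled it was 89.1% against 97.1% (-8.01 points, adjusted exact p = 0.0113). The differences in 10Q and in the pooled libraries did not pass among junctions with mapping quality of 30 or more, at -5.22 and -3.68 points (adjusted exact p = 1 and 0.651), or after positions within 5 bp were merged, at -16.9 and -11.2 points (adjusted exact p = 0.320 and 0.124). In 10Q the difference also missed the threshold at mapping quality above 0, at -15.6 points (adjusted exact p = 0.0727).

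Few of these far prey in the ataxin-7 libraries were firmly placed. Mapping quality reached 30 in 2 of 8 in 10Q, 3 of 8 in 92Q and 11 of 18 in sgRNA only. The 8 of 10Q lay 5.56 to 39.5 Mb from the bait, and 5 of them were in gene bodies: Cadps and Synpr, which encode proteins of synaptic vesicles, the Hippo kinase gene Lats2, the membrane-curving Bin3 and the adhesion adaptor Sorbs3. These 5 were named after their positions had been seen. Those of 92Q included 1 in Fhit, a diadenosine hydrolase gene at a common fragile site, and 1 in Grid1, a delta-type glutamate receptor gene that also held 2 of the sgRNA-only junctions. The long non-coding gene Gm35218 held 1 junction each of 92Q and sgRNA only.

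Near the cut the prey lay mostly on the plus strand in each library. Within 10 kb, prey on the plus strand, the strand of the 93.0% of non-targeting reads that sit exactly at the bait end, made up 37 of 37 junctions in 10Q. They were 99 of 106 in 92Q and 362 of 390 in sgRNA only. At equal reads the differences were 3.27 points for 10Q (-6.63 to 10.4, adjusted exact p = 0.758) and -2.48 points for 92Q (-9.02 to 3.74, adjusted exact p = 0.758), neither past the threshold. Minus-strand prey numbered 0 in 10Q, whose 95% Poisson interval reaches 3.69, with 2.16 ± 1.40 expected, and 7 in 92Q with 5.59 ± 2.10 expected.

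The distance of plus-strand prey downstream of the bait end was short in all 3 libraries. The median was 97 bp in 10Q (35 junctions, quartiles 39.5 to 435.5), 132 bp in 92Q (97 junctions, 41 to 423) and 314.5 bp in sgRNA only (352 junctions, 113.75 to 753). With sgRNA only thinned to the reads of 10Q and of 92Q, its medians were 114 bp and 153 bp. Thinning to total reads left 62.1 and 126.7 sgRNA-only junctions here, more than the 35 and 97, so depth near the cut was not matched. Counted by reads, the order was another one, with medians of 79 bp in 10Q, 41.5 bp in 92Q and 44 bp in sgRNA only. Distances over 1 kb made up 19.3% of sgRNA-only junctions, 8.57% in 10Q and 7.22% in 92Q. Without thinning the difference for 92Q was -12.1 points (-17.9 to -4.20, Fisher's exact test, adjusted exact p = 0.00681 over 6 unthinned tests). These and their 6 equal-read versions, adjusted separately, were added after the data were seen. At equal reads the sgRNA-only share was 11.3% and that difference was -4.13 points (-11.4 to 4.38, adjusted exact p = 0.445). For 10Q the equal-read difference was -0.462 points (-12.5 to 13.6, adjusted exact p = 1).

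**Figure D3:**
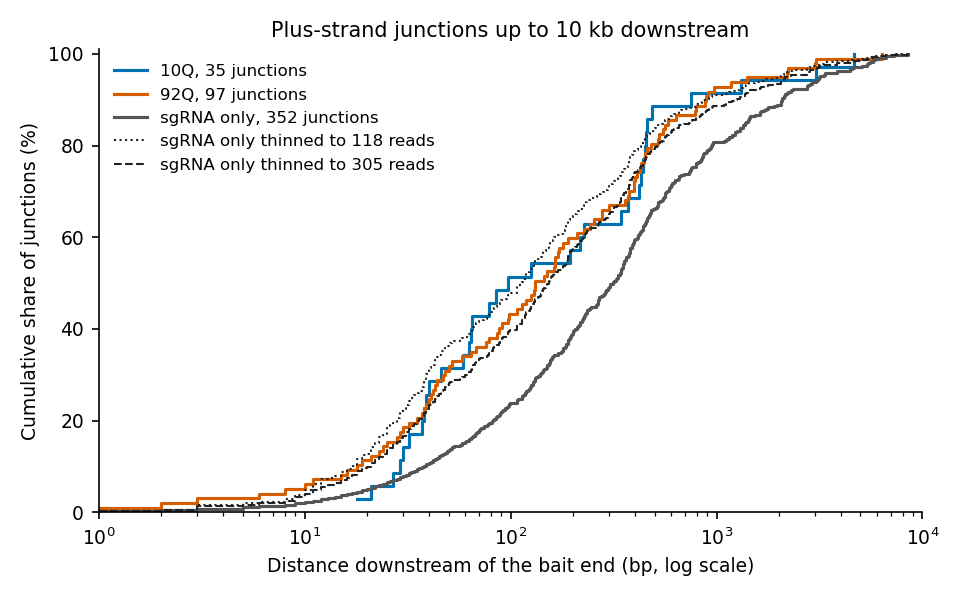
Cumulative share of plus-strand junctions (y axis, %) by distance downstream of the bait end (x axis, bp, log scale) for 10Q, 92Q, sgRNA only, and sgRNA only thinned to 118 and to 305 reads. The complete sgRNA-only curve lies to the right, with a median of 314.5 bp, and the thinned curves, with medians of 114 and 153 bp, run close to those of 10Q and 92Q at 97 and 132 bp.

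Some joining positions drew many reads near the cut, and the ataxin-7 libraries used the leading ones too. The bait end itself, where an uncut or exactly rejoined locus would be read, took 6 reads in 10Q (5.08%), 20 in 92Q (6.56%) and 113 in sgRNA only (7.40%), against 917 (93.0%) with the non-targeting sgRNA. The position 18 bp downstream (chromosome 14, 52181680) took 3 reads in 10Q (2.54%, 0.527 to 7.25), 25 in 92Q (8.20%, 5.37 to 11.9) and 145 in sgRNA only (9.50%, 8.07 to 11.1). None of the non-targeting reads lay there, which allows up to 0.373% by the exact interval. The position 21 bp downstream took 2 reads in 10Q (1.69%), 4 in 92Q (1.31%, 0.358 to 3.32) and 54 in sgRNA only (3.54%, 2.67 to 4.59). As a share of all reads, at 18 bp the interval of 10Q lay below that of sgRNA only, and that of 92Q overlapped it. At the bait end and at 21 bp the intervals of both ataxin-7 libraries overlapped it. On-cut reads were 39.0% of all reads in 10Q, 64.6% in 92Q and 87.8% in sgRNA only. These percentages of all reads are therefore not independent of the on-cut share. Of on-cut reads, the 18 bp position took 3 of 46 in 10Q, 25 of 197 in 92Q and 145 of 1341 in sgRNA only. The bait end took 6 of 46, 20 of 197 and 113 of 1341 in the same order. No test was run on single positions.

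Individual positions recurred near the cut and almost never elsewhere. Of the junctions within 10 kb, 26 of 37 in 10Q (70.3%, and 6.67% of the 390 in sgRNA only) and 69 of 106 in 92Q (65.1%, and 17.7% of the 390) were at a base also used in sgRNA only. On other chromosomes 0 of 58 in 10Q and 1 of 96 in 92Q were, the latter at chromosome 11 position 104109753 on the plus strand, outside any gene body. A near match fell in Pde4a, a cAMP phosphodiesterase gene on chromosome 9, at 21196729 in 92Q and 21196723 in sgRNA only, 6 bp apart; mapping quality was 40 in the first and 0 in the other. Igsf21, an immunoglobulin superfamily gene on chromosome 4, held the same position (140055123, plus strand) in 10Q and in the non-targeting library. Cracr2a on chromosome 6, which encodes a calcium sensor of store-operated channels, held the same position (127599405, minus strand) in 10Q and 92Q, with mapping quality of 23 and 3.

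Interchromosomal prey were nearly all single reads and showed no strand preference. Single reads made up 57 of 58 in 10Q, 94 of 96 in 92Q and 151 of 153 in sgRNA only. The plus and minus strands held 29 and 29 in 10Q, 45 and 51 in 92Q, and 74 and 79 in sgRNA only. The most-read interchromosomal junction of 10Q (chromosome 8, 126733553) had 6 reads and that of sgRNA only (in Megf11 on chromosome 9, 64403676) had 9, both at mapping quality 0. They were picked out after the values were seen.

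Counts of interchromosomal junctions per chromosome were small and varied. The chromosomes given here were picked after the values were seen, and chromosome length was not taken into account. Chromosome 8 held 17 of 153 interchromosomal junctions in sgRNA only (11.1%, 6.61 to 17.2), 2 of 96 in 92Q (2.08%, 0.253 to 7.32) and 1 of 58 in 10Q (1.72%). Chromosome 11 held 4 in sgRNA only (2.61%, 0.717 to 6.56), 10 in 92Q (10.4%, 5.11 to 18.3) and 3 in 10Q. Chromosome 10 held 11, 4 and 8 in sgRNA only, 92Q and 10Q, and was the most frequent in 10Q (13.8%). These shares were not tested.

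Among interchromosomal prey, mapping quality of 0 was more frequent in the ataxin-7 libraries before thinning. Mapping quality is the aligner's score of confidence in a placement. It can vary at the same position: chromosome 11 position 104109753 scored 42 in 92Q and 0 in sgRNA only. Among all reads, 39.0% scored 0 in 10Q, 23.6% in 92Q, 15.7% in sgRNA only and 17.6% with the non-targeting sgRNA. Among interchromosomal junctions the score was 0 for 26 of 58 in 10Q (44.8%, 31.7 to 58.5) and 32 of 96 in 92Q (33.3%, 24.0 to 43.7). It was 0 for 32 of 153 in sgRNA only (20.9%, 14.8 to 28.2) and 9 of 48 with the non-targeting sgRNA (18.8%). Without thinning, the difference from sgRNA only was 23.9 points in 10Q (9.89 to 37.8, Fisher's exact test, adjusted exact p = 0.00489) and 12.4 points in 92Q (1.23 to 23.8, adjusted exact p = 0.0442). At equal reads, with few sgRNA-only junctions left, the differences were 21.2 and 10.8 points (adjusted exact p = 0.445 for both). These tests too were added after the data were seen, with 6 unthinned and 6 equal-read tests adjusted separately. Dropping poorly placed prey left the interchromosomal comparison past the threshold. At mapping quality of 30 or more the share was 35.6% in 10Q against 8.61% (26.9 points, 8.94 to 42.8, adjusted exact p = 0.0104) and 36.1% in 92Q against 10.4% (25.7 points, 14.6 to 36.4, adjusted exact p = 5.35e-05).

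**Figure D4:**
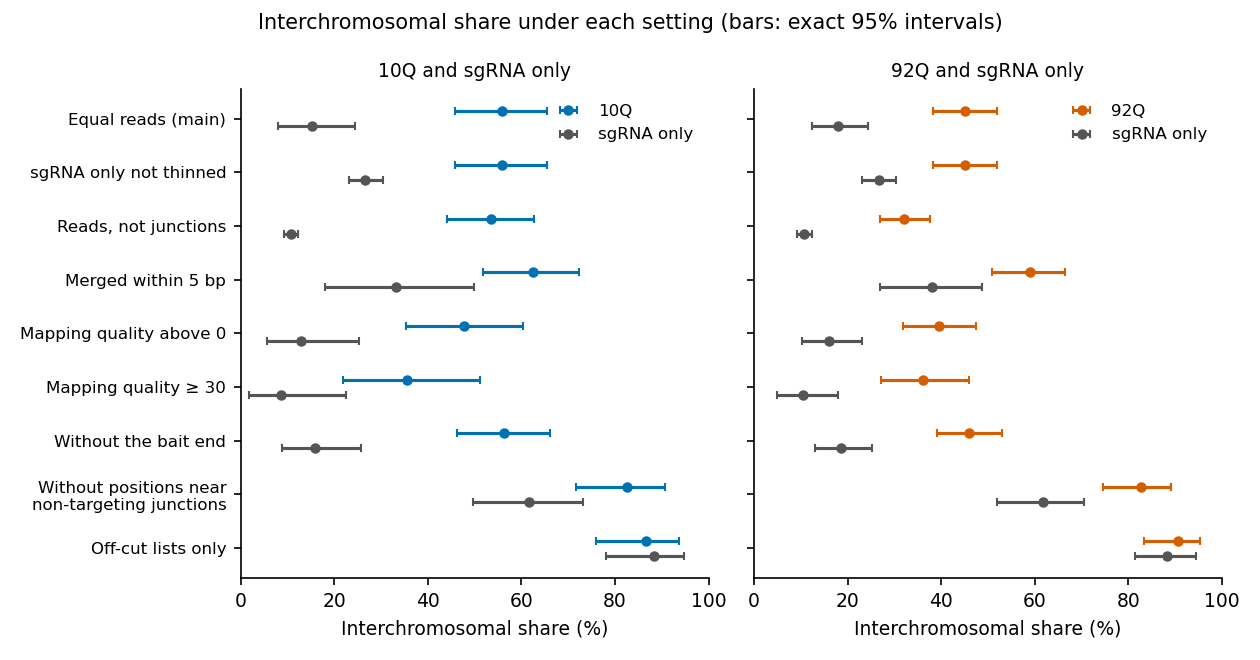
Interchromosomal share of distinct junctions (x axis, %; reads in the third row) in 10Q (left) and 92Q (right), each with sgRNA only, under the main and 8 other settings (y axis), with exact 95% intervals. Both ataxin-7 libraries lie above sgRNA only in each setting except within the off-cut lists, where the shares are 86.6% and 88.3% for 10Q and 90.6% and 88.3% for 92Q.

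The share of interchromosomal prey inside genes did not pass the threshold in any contrast. Protein-coding bodies held 32 of 58 in 10Q (55.2%), 48 of 96 in 92Q (50.0%) and 68 of 153 in sgRNA only (44.4%). At equal reads the difference was 8.43 points in 10Q (-22.5 to 32.6, adjusted exact p = 0.793) and 4.09 points in 92Q (-14.8 to 23.6, adjusted exact p = 0.788), with intervals too wide to set the direction. Near the cut, Supt16 held 37 junctions in 10Q, 106 in 92Q and 397 in sgRNA only. Its neighbour Chd8, a chromatin remodeller gene, held 0, 2 and 4, and Rpgrip1, a photoreceptor cilium gene on the other side, held 0, 0 and 1.

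Outside 1 Mb of the bait, junctions fell in 48 genes in 10Q, 65 in 92Q and 94 in sgRNA only, and no gene held 2 junctions of an ataxin-7 library. In sgRNA only, Grid1 held 2, and so did the overlapping Cfap97d2 and Gm46032 on chromosome 8 (13710406 and 13719711, both at mapping quality under 30). Pard3b, a long cell polarity gene on chromosome 1, held 1 junction of 10Q (62013315) and 1 of 92Q (62003141) and none of sgRNA only. Mapping quality was 0 for the 10Q junction and 42 for the 92Q junction. Apba1, a synaptic adaptor gene on chromosome 19, held 1 each of 10Q and sgRNA only. The kelch-family gene Klhl29 on chromosome 12 held 1 each of 92Q and sgRNA only. All junctions in Apba1 and Klhl29 were at mapping quality under 30. Well-mapped coding-gene prey with equal reads were ordered by position, with chromosome names sorted as text. The first were Prdm1, Slc16a9, Pomt2, Apol7a and Rac2 in 10Q, with 1 read each. In 92Q they included Pard3b, Gpa33, Katna1 and Aig1, also with 1 read each. In sgRNA only they were Zrsr2, a splicing factor gene with 2 reads, and Il1r1, Kif1a, Smyd3 and Syne1 with 1.

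Gene lists chosen for the biology of ataxin-7 and of breaks held few junctions apart from those in Supt16. Of 21779 protein-coding genes, 38 were hit in 10Q, 53 in 92Q and 72 in sgRNA only, counted outside 1 Mb of the bait. No list was tested against these numbers, and gene length was not taken into account. None of the 9 polyglutamine disease genes, Atxn7 among them, held a junction in the 3 libraries. Of 21 SAGA genes, Atxn7l1, a paralogue of Atxn7, held 1 junction in sgRNA only. Of 25 break repair genes, Prkdc, the catalytic subunit of DNA-dependent protein kinase in end joining, held 1 in 10Q (chromosome 16, 15771648) at mapping quality under 30. Of 9 common fragile site genes, Fhit held 1 in 92Q and Immp2l, a mitochondrial peptidase gene, 1 in sgRNA only. Of 30 long neural genes, the kinase gene Dgkb and the receptor phosphatase gene Ptprd held 1 each in sgRNA only. Supt16 was the one histone chaperone gene of 12 that was hit. With 58, 96 and 153 interchromosomal junctions, single hits of this kind carry no comparison.

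The same share was computed at site 1, in the Dach1 bait libraries of the series. Those libraries held 13152 reads in 10Q, 963 in 92Q and 8812 in sgRNA only. There 10Q was 38.4% interchromosomal against 39.3% in sgRNA only at equal reads (-0.894 points, -3.01 to 1.22, Fisher's exact test, adjusted exact p = 0.414), and 92Q was 67.9% against 30.2% (37.7 points, 33.0 to 42.1). No interchromosomal prey position of the site 2 libraries was also one at site 1.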

How the data were processed

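The authors deposited, for each library, an on-cut and an off-cut list of reads with position, strand and a score from 0 to 42, read here as the aligner's mapping quality. Per the submitters' processing notes, Bowtie2, mm10 and mm9 were used, with no version or role given. The bait end was the position with the most non-targeting reads. It lies within Supt16 on mm10, so mm10 was used throughout. No source used here gives the read filters, the removal of duplicates or the on-cut rule. All reads carry 1 run and lane name. The members, lists and tests were chosen with earlier results of these data known, and the interchromosomal difference without thinning was among those results.

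Both lists were joined, and identical chromosome, 5′ end and strand made 1 junction. Thinning used the exact expected number of distinct junctions (no random draws), with SD. Intervals are Clopper-Pearson for shares, Poisson for counts and ratios, and Newcombe for differences. Code was tested on simulated data (Python 3.11.15, SciPy 1.17.1, pandas 2.3.3, NumPy 2.4.6, matplotlib 3.10.9). Gene bodies came from the RefSeq table for GRCm38.p6 (49603 genes, 21779 of them protein coding), which shares mm10 coordinates; 340 entries were dropped as unplaced or within the first 3 Mb of a chromosome. The text names the bait gene, genes within 100 kb of it holding a junction, genes outside 1 Mb holding 2 junctions of a library or junctions of an ataxin-7 and another library, 5 coding genes per library off chromosome 14 ranked by reads at mapping quality of 30 or more and then by position, and list members hit; 1 gene that this rule selects is not reported here. In the ranking by position, chromosome names were sorted as text. Alternatives changed the thinning, counted reads, merged positions within 5 bp or set mapping quality to 30 or above 0. Others left out the bait end or positions within 1 kb of non-targeting junctions, or used off-cut lists alone. Mapping quality above 0 was chosen after the data were seen.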

Additional observations from a re-analysis of the deposited data

Results flagged for a closer look

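The change in interchromosomal share between 10Q and sgRNA only differed between the cut sites. At equal reads it was 40.6 percentage points at site 2 and -0.894 points at site 1, a difference of 41.5 points (exact test of equal odds ratios, adjusted p = 1.18e-08 over 2 tests). For 92Q the changes were 27.0 and 37.7 points, a difference of -10.7 points (exact test, adjusted p = 0.343). Each library stands for 1 pool of 3 transfections, and read totals differed widely, with 118 reads in 10Q at site 2 and 13152 at site 1, where 8812 were kept. At site 1, 92Q had 963 reads and sgRNA only 8812. Thus 10Q at site 1 was deeper than its sgRNA-only library, whereas 92Q at site 1 and both site 2 ataxin-7 libraries were shallower. Whether the depth has a part in the difference was not tested.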

How the results depend on the processing

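The interchromosomal share stayed higher in 10Q, 92Q and the pooled libraries, and past the threshold, under all alternatives run except the off-cut lists alone, where the differences were -1.70, 2.26 and 0.526 points. The lowest of the others was 20.9 points in 10Q, 18.5 in 92Q and 20.6 pooled. Leaving out positions within 1 kb of non-targeting junctions mainly removed prey near the bait. Within 10 kb of the bait end it took 34 of 37 junctions in 10Q, 97 of 106 in 92Q and 330 of 390 in sgRNA only. On other chromosomes it took 1 of 58, 0 of 96 and 1 of 153, so it cannot test for interchromosomal background. The on-cut share kept its direction and its call under the alternatives run. The share within 1 Mb on chromosome 14 lost its call in 10Q with merged positions (-16.9 points), at mapping quality of 30 (-5.22) and above 0 (-15.6), and in the pooled libraries with merged positions (-11.2) and at mapping quality of 30 (-3.68). The plus-strand share, which passed no threshold, changed sign without thinning (0.576 in 92Q, 1.67 pooled), with merged positions (1.68, 4.10) and at mapping quality of 30 (0.185, 0.927). The ratio of distinct junctions to the sgRNA-only number moved with merged positions to 2.51 in 10Q, 1.97 in 92Q and 2.17 pooled, within the off-cut lists to 0.985, 1.05 and 1.03, and at mapping quality of 30 to 1.16 pooled. The cause was not tested in any of these, save that off-cut lists hold few near prey by construction. In all, 75 values were tested shares that kept direction and side of the threshold or ratios that stayed within the interval of the reported ratio, which may still include 1. Another 7 moved, 7 changed sign and 7 lost their call. No replicate could be left out and no paired analysis was possible, because each condition has 1 library. The sample titles also carry no replicate numbers. Depth limits the ataxin-7 libraries most: at mapping quality of 30, 10Q has 45 reads.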
